A study of Mus musculus with 8 samples.

Results

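Krt5, Krt14, Krt17, Trp63, Acta2, Myh11, Cnn1, Oxtr, Lgr5 and Procr are genes of the basal, or myoepithelial, layer of the mammary epithelium. They were chosen by name, as keratins, a regulator, contractile proteins and receptors of that layer, with earlier results of these data known. These are 10 of the 51789 genes in the deposited count table, and all 10 were among the 17858 genes with enough counts to be tested. RNA came from whole mammary glands, 6 weeks after a single injection of small extracellular vesicles (sEVs). The labels name the groups control, normoxia exosomes and hypoxia exosomes, called here sEV-CTRL (3 libraries), sEV-NORM (3 libraries) and sEV-HYP (2 libraries). AT3, a mouse mammary adenocarcinoma line that metastasizes, was the source of sEV-NORM when kept in normoxia and of sEV-HYP when kept in hypoxia, and sEV-CTRL was prepared from non-conditioned medium. All recipients were immunocompetent female C57BL/6 mice (an albino line obtained as Albino-C57BL/6, full name B6(Cg)-Tyrc-2J/J) injected in the abdominal mammary gland, and their age is not given in the sources used here. The vesicle donor was a single cell line, so the groups describe AT3 vesicles only.

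The basal layer lies between the luminal, milk-forming cells and the basement membrane. Its cells hold a keratin 5 and keratin 14 network under the control of p63, and a smooth muscle type of contractile apparatus that answers oxytocin by squeezing milk toward the nipple. Mammary repopulating activity has also been placed in this layer, with Lgr5 and Procr among its proposed markers. None of the 10 genes belongs to this layer alone. The epidermis and hair follicle make Krt5, Krt14, Krt17 and Trp63, and hair follicle stem cells make Lgr5. Smooth muscle of vessel walls makes Acta2, Myh11 and Cnn1, and endothelium makes Procr. In whole-gland RNA, fewer cells of a type and less RNA per cell cannot be told apart.

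Total counts per library were 18194996 to 24622569. Values are CPM, a TMM-normalized count that corrects for sequencing depth, and levels of different genes are compared per kb of exon only. Exon length is the union of all annotated exons of a gene, so a gene with many or long annotated isoforms can get a lower value per kb. The glands carried the markers of mammary tissue. The 16 luminal genes summed to 1117 to 2365 CPM and the 6 adipocyte genes to 5462 to 9768 CPM in the 8 libraries. Other tissues were present in unequal amounts, and 2 libraries stood apart. The 12 suprabasal skin genes summed to 11.4 to 14.7 CPM in 7 libraries and to 96.6 CPM in sEV-NORM 3, where Krt1 was at 4.44 CPM and Lor, the main cornified envelope protein, at 2.46 CPM. Of these 12 genes, 5 had counts in every library, and Krt2 was at 0 in all 8. The 13 hair follicle genes summed to 0.549 to 1.50 CPM in 7 libraries and to 5.01 CPM in sEV-NORM 3, with Krt72, Krt34 and Krt35 at 0 in all 8. The 12 skeletal muscle genes summed to 760 to 10243 CPM with sEV-CTRL, 30.2 to 3469 CPM with sEV-NORM and 5351 to 14754 CPM with sEV-HYP, with the lowest value in sEV-NORM 2. The 9 genes of vascular mural cells (smooth muscle and pericytes) summed to 481 to 735 CPM. The part of these tissues in the results was not tested, and results that move without sEV-NORM 2 or sEV-NORM 3 are given both ways.

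Per kb of exon, Acta2, the smooth muscle actin of myoepithelial and mural cells, was the most abundant of the 10 genes, with a mean of 112 CPM per kb over the 8 libraries (range 73.6 to 143). It lay above 97.6% of the 17817 tested genes that have an exon length. Oxtr, the oxytocin receptor, came next at 13.7 CPM per kb, followed by Myh11 (8.17), Cnn1 (6.14), Krt5 (4.58), Procr (3.32), Krt14 (3.04), Trp63 (2.54), Krt17 (1.35) and Lgr5 (1.06). Acta2 exceeded Oxtr, and Oxtr exceeded Myh11, in 8 of 8 libraries. Lower down, Krt5 exceeded Procr in 8 of 8 libraries, while other neighbors exchanged places in some libraries. Myh11 exceeded Cnn1, Cnn1 exceeded Krt5 and Trp63 exceeded Krt17 in 7 of 8. Procr exceeded Krt14 in 5 of 8 libraries, Krt14 exceeded Trp63 in 6, and Krt17 exceeded Lgr5 in 5. Lgr5, a receptor for R-spondins, was the lowest per kb, above 27.5% of the genes. Its exon union of 10264 bases was the longest of the 10, beside 1551 bases for Krt17, so its place depends on the annotation.

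**Figure D1:**
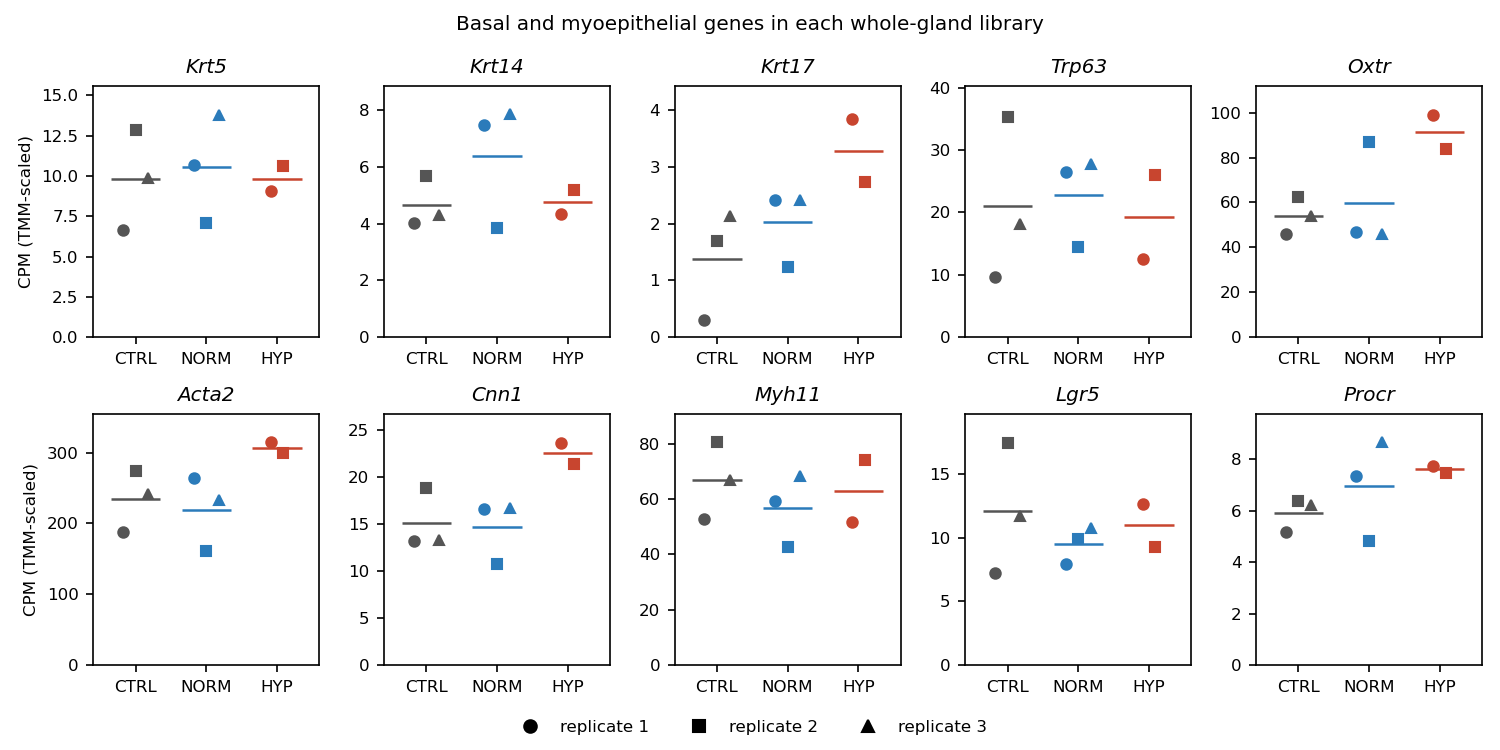
TMM-scaled CPM of each of the 10 genes (y axes from 0) in each library, by group on the x axis; symbols mark the replicate number and horizontal lines the group mean. Both sEV-HYP libraries of Oxtr, at 99.1 and 83.7 CPM, and of Cnn1, at 23.7 and 21.4 CPM, lay above every sEV-CTRL library, while the groups overlapped for Krt5, Krt14, Trp63, Myh11 and Lgr5.

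Upstream sequences are shown for Krt5 and Acta2, which held matches to the sites searched for. A link between such matches and the levels across libraries was not tested. RefSeq (GRCm38.p6) windows of 250 bases before the RefSeq start were matched for 6 of the 10 genes, Krt5, Krt14, Acta2, Cnn1, Oxtr and Procr. The Krt14 window (chr11:100206031-100206280, minus strand) lies inside the Krt14 gene as annotated by GENCODE, outside its exons. It is therefore not upstream of that gene. In GENCODE, 118 bases of the Oxtr window, 100 of the Procr window and 37 of the Cnn1 window are exon of the same gene. They were searched for the CArG box, the site of serum response factor, for the same box with 1 G or C in its core (CArG-like), and for the p53 family decamer, which p63 also recognizes. Each pattern is its own reverse complement, so both strands were covered, and no pair of matches overlapped. The search was added after the values were seen. The CArG box was in 1.62% of the 27025 genes with a window and in 0 of the 6. CArG-like boxes were in 8.33% of genes and, of the 6, in Acta2 alone, which held 2. The p53 family decamer was in 8.20% of genes and, of the 6, in Krt5 alone. Such matches describe letters and not bound sites. The Krt5 window lies at chr15:101712906-101713155 on the minus strand, outside the annotated exons of Krt5, with the decamer in capitals at bases -95 to -86 from the RefSeq start. The Acta2 boxes, in capitals with 10 bases on either side, are at bases -84 to -75 (chr19:34255438-34255467, minus strand) and -34 to -25 (chr19:34255388-34255417, minus strand). Both Acta2 stretches fall in a first exon that GENCODE starts further upstream than RefSeq does.
Krt5 upstream window: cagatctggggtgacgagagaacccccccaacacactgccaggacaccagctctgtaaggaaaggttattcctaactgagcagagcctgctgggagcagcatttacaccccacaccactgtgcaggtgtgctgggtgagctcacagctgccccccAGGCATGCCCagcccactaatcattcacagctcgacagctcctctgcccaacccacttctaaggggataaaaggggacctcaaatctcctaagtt
Acta2 distal box: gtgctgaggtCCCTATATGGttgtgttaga
Acta2 proximal box: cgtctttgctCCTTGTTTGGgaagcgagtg

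Krt5 (ENSMUSG00000061527, chr15:101707070-101712898, minus strand, GRCm38) encodes the type II keratin that pairs with keratin 14 in basal cells. It was at 6.65, 12.9 and 9.84 CPM with sEV-CTRL, 10.7, 7.09 and 13.8 CPM with sEV-NORM, and 9.06 and 10.6 CPM with sEV-HYP. The sEV-HYP libraries sat inside the range of both other groups. The fitted log2 fold change of sEV-HYP was 0.01 against sEV-CTRL (SE 0.34, 95% interval -0.77 to 0.78) and -0.10 against sEV-NORM (SE 0.34, -0.87 to 0.67). These intervals still hold changes of more than 1.5-fold in either direction.

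Krt14 (ENSMUSG00000045545, chr11:100203162-100207548, minus strand), the type I partner of Krt5, was at 4.01, 5.70 and 4.32 CPM with sEV-CTRL, 7.48, 3.85 and 7.85 CPM with sEV-NORM, and 4.35 and 5.19 CPM with sEV-HYP. sEV-NORM 1 and sEV-NORM 3 were the highest of the 8 and sEV-NORM 2 was the lowest. The log2 fold change of sEV-NORM against sEV-CTRL, 0.45 (SE 0.31, unadjusted P = 0.181 by edgeR), was the one nearest to the threshold in that comparison. It was 0.28 (unadjusted P = 0.454) without sEV-NORM 3, the library with skin genes, and 0.71 (unadjusted P = 0.0284) without sEV-NORM 2, the library with the fewest skeletal muscle counts. Against sEV-CTRL, sEV-HYP gave 0.03 (SE 0.35), and against sEV-NORM it gave -0.42 (SE 0.35, 95% interval -1.21 to 0.37, unadjusted P = 0.257). With the summed skeletal muscle level as a covariate, which was added after the list levels were seen, sEV-NORM against sEV-CTRL was at 0.74 (unadjusted P = 0.0117) and sEV-HYP against sEV-NORM at -0.95 (unadjusted P = 0.0103, adjusted P = 0.795). Within a library, Krt14 per kb was below the luminal keratin Krt8 throughout, by log2 -4.60 to -3.10, with means of -3.68 ± 0.54 (SD, n = 3) for sEV-CTRL, -3.60 ± 0.86 (n = 3) for sEV-NORM and -4.27 ± 0.04 (n = 2) for sEV-HYP. The sEV-HYP values of this ratio lay inside the range of the other groups, as did those of Krt5 to Krt18 per kb, -4.32 and -4.48 on the log2 scale.

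Krt17 (ENSMUSG00000035557, chr11:100256217-100261029, minus strand), a keratin of basal cells, hair follicles and stressed epidermis, rested on 6 to 84 counts per library. Its levels were 0.305, 1.69 and 2.13 CPM with sEV-CTRL, 2.41, 1.24 and 2.41 CPM with sEV-NORM, and 3.85 and 2.73 CPM with sEV-HYP. Both sEV-HYP libraries lay above the other 6. The log2 fold change against sEV-CTRL was 1.26 (SE 0.64, 95% interval -0.20 to 2.71, unadjusted P = 0.0821), and that against sEV-NORM was 0.70 (SE 0.63, unadjusted P = 0.298). The spread within sEV-CTRL, where a single library was at 6 counts, was wide, and without sEV-CTRL 3 the first value became 1.71 (unadjusted P = 0.0488). The suprabasal skin genes summed to 11.9 CPM in sEV-HYP 1 and 12.3 CPM in sEV-HYP 2, inside the range of the sEV-CTRL libraries, and to 96.6 CPM in sEV-NORM 3. The hair follicle genes summed to 0.549 CPM in sEV-HYP 1, 1.50 CPM in sEV-HYP 2, 0.812 to 1.37 CPM with sEV-CTRL and 5.01 CPM in sEV-NORM 3. The part of skin and follicle in the Krt17 values was not tested.

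Keratin genes share sequence. Of the 50-base stretches in their exons, 13.9% for Krt14, 8.52% for Krt5 and 3.99% for Krt17 also occur in other genes, mainly Krt16, Krt6a and Krt17 or Krt14. Krt16 had at most 1 count and Krt6a 0 to 22 counts in any library, and how reads were divided among these genes is uncertain. Exons of Krt5 also overlap those of Gm44323 on the opposite strand, and the strand setting of the counting is not given. Stretches shared with other genes made up at most 0.647% of the other 7 genes, and Acta2 shared 0 with Acta1, the skeletal muscle actin.

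Trp63 (ENSMUSG00000022510, chr16:25683763-25892102, plus strand) encodes p63, the transcription factor that maintains basal identity. The study examined p63 protein in injected glands. Trp63 RNA was measured at 9.64, 35.3 and 18.2 CPM with sEV-CTRL, 26.4, 14.4 and 27.7 CPM with sEV-NORM, and 12.6 and 26.0 CPM with sEV-HYP. The highest library exceeded the lowest 3.66-fold, and both belonged to sEV-CTRL. Log2 fold changes were -0.13 (SE 0.53, 95% interval -1.31 to 1.06) for sEV-HYP against sEV-CTRL, -0.24 (SE 0.53) against sEV-NORM, and 0.12 (SE 0.47) for sEV-NORM against sEV-CTRL. With this spread, the fit without covariates does not exclude changes inside such intervals. Trp63 followed the luminal genes across libraries (r = 0.829 over 8 libraries, exact permutation p = 0.00774, adjusted p = 0.0619 over 40 relations, Spearman's rho = 0.762, p = 0.0368, adjusted p = 0.210), and r was 0.757 without sEV-CTRL 1 and sEV-HYP 2. With the summed luminal level as a covariate, the Trp63 value was -0.84 (unadjusted P = 0.00797, adjusted P = 0.970 by edgeR) for sEV-HYP against sEV-CTRL and -0.61 (unadjusted P = 0.0214, adjusted P = 0.827) against sEV-NORM. With the skeletal muscle covariate, the latter was -1.15 (unadjusted P = 0.0254, adjusted P = 0.917), and with the suprabasal skin level as a covariate it was 0.021 (unadjusted P = 0.972).

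Acta2 (ENSMUSG00000035783, chr19:34241090-34255590, minus strand) was at 187, 274 and 242 CPM with sEV-CTRL, 264, 162 and 233 CPM with sEV-NORM, and 315 and 299 CPM with sEV-HYP. The sEV-HYP libraries were the highest of the 8. The log2 fold change was 0.39 (SE 0.24, 95% interval -0.15 to 0.92, unadjusted P = 0.137) against sEV-CTRL and 0.48 (SE 0.24, -0.05 to 1.02, unadjusted P = 0.0714) against sEV-NORM. With the skeletal muscle covariate these were 0.23 (unadjusted P = 0.193) and 0.11 (unadjusted P = 0.600). Without sEV-NORM 1, the difference from sEV-NORM was 0.64 (unadjusted P = 0.0385).

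Cnn1 (ENSMUSG00000001349, chr9:22099216-22109630, plus strand) encodes calponin, an actin-binding protein of smooth muscle and myoepithelium. Its levels were 13.1, 18.8 and 13.3 CPM with sEV-CTRL, 16.6, 10.7 and 16.7 CPM with sEV-NORM, and 23.7 and 21.4 CPM with sEV-HYP. Both sEV-HYP libraries exceeded all others. Cnn1 was 1.49-fold higher with sEV-HYP than with sEV-CTRL (log2 fold change 0.58, SE 0.25, 95% interval 0.01 to 1.14, unadjusted P = 0.0466) and 1.54-fold higher than with sEV-NORM (0.62, SE 0.25, 0.06 to 1.19, unadjusted P = 0.0347). The adjusted P by edgeR was 1.00 for both. With the skeletal muscle covariate the values were 0.43 (unadjusted P = 0.0519) and 0.26 (unadjusted P = 0.291), and with the luminal covariate the first was 0.41 (unadjusted P = 0.137). Without any 1 of sEV-CTRL 1, sEV-CTRL 3, sEV-NORM 1, sEV-NORM 3, sEV-HYP 1 or sEV-HYP 2, the difference from sEV-CTRL was 0.48 to 0.65 and its unadjusted P between 0.0575 and 0.171. Without sEV-NORM 2, the difference from sEV-NORM was 0.44 (unadjusted P = 0.0990), and without sEV-HYP 1 or sEV-HYP 2 it was 0.55 (unadjusted P = 0.139) and 0.69 (unadjusted P = 0.0673).

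Myh11 (ENSMUSG00000018830, chr16:14194535-14291372, minus strand) encodes smooth muscle myosin heavy chain, a protein that was also examined in the study. Myh11 RNA was at 52.9, 80.7 and 66.9 CPM with sEV-CTRL, 59.1, 42.7 and 68.4 CPM with sEV-NORM, and 51.5 and 74.1 CPM with sEV-HYP. The sEV-HYP libraries overlapped both other groups, with log2 fold changes of -0.09 (SE 0.26, 95% interval -0.68 to 0.50) against sEV-CTRL and 0.15 (SE 0.26, -0.44 to 0.73) against sEV-NORM. The ratio of Acta2 to Myh11 per kb within each library was 3.61 ± 0.04 (log2, SD, n = 3) for sEV-CTRL, 3.74 ± 0.20 (n = 3) for sEV-NORM and 4.10 ± 0.42 (n = 2) for sEV-HYP. That of Cnn1 to Myh11 was -0.67 ± 0.16, -0.48 ± 0.11 and 0.02 ± 0.47. Both ratios were farthest from the other groups in sEV-HYP 1, at 4.40 and 0.35, and sEV-HYP 2, at 3.80 and -0.32, lay nearer to them.

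Oxtr (ENSMUSG00000049112, chr6:112473683-112489943, minus strand), the receptor through which oxytocin contracts myoepithelial cells, was at 45.9, 62.3 and 53.9 CPM with sEV-CTRL, 46.9, 87.1 and 45.8 CPM with sEV-NORM, and 99.1 and 83.7 CPM with sEV-HYP. Which cells of the gland made this RNA was not tested. Both sEV-HYP libraries exceeded every sEV-CTRL library, and sEV-NORM 2 lay between them. Oxtr was 1.69-fold higher with sEV-HYP than with sEV-CTRL (log2 fold change 0.76, SE 0.28, 95% interval 0.12 to 1.40, unadjusted P = 0.0247, adjusted P = 1.00 by edgeR). The difference from sEV-NORM was 0.61 (SE 0.28, -0.03 to 1.25, unadjusted P = 0.0594). Without sEV-NORM 2, the library lowest in skeletal muscle genes, it was 0.98 (unadjusted P = 0.00101, adjusted P = 1.00). Without sEV-CTRL 1, sEV-CTRL 3 or sEV-HYP 1, the difference from sEV-CTRL was 0.65 (unadjusted P = 0.0687), 0.76 (unadjusted P = 0.0579) and 0.63 (unadjusted P = 0.119). With the skeletal muscle covariate, the Oxtr differences were 0.89 (unadjusted P = 0.00408) against sEV-CTRL and 1.03 (unadjusted P = 0.00655) against sEV-NORM. The adjusted P by edgeR for the latter was 0.769. Skeletal muscle levels were unequal between the groups, and their part in these differences was not tested.

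Lgr5 (ENSMUSG00000020140, chr10:115450311-115587780, minus strand) was at 7.26, 17.5 and 11.7 CPM with sEV-CTRL, 7.92, 9.92 and 10.8 CPM with sEV-NORM, and 12.6 and 9.31 CPM with sEV-HYP. The sEV-CTRL libraries alone spanned all others, and the log2 fold change of sEV-HYP was -0.15 (SE 0.35, 95% interval -0.93 to 0.64) against sEV-CTRL. That of sEV-NORM against sEV-CTRL was -0.35, and without sEV-CTRL 1 it was -0.63 (unadjusted P = 0.0396). Procr (ENSMUSG00000027611, chr2:155751117-155755471, plus strand), the protein C receptor of endothelium and of a basal subpopulation, was at 5.18, 6.38 and 6.23 CPM with sEV-CTRL, 7.36, 4.83 and 8.70 CPM with sEV-NORM, and 7.74 and 7.49 CPM with sEV-HYP. Its sEV-HYP libraries exceeded every sEV-CTRL library but lay between those of sEV-NORM. The log2 fold change against sEV-CTRL was 0.36 (SE 0.28, -0.28 to 1.00, unadjusted P = 0.233). The 7 endothelial genes, which include the Procr partner Thbd, had negative log2 fold changes in this comparison in 7 of 7 cases, with a median of -0.17, and 0 had a P under 0.05. Of all genes tested, 47.5% had a positive log2 fold change in that comparison and 2.45% had an unadjusted P under 0.05.

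Counted over the 10 genes, sEV-NORM against sEV-CTRL gave 0 with an unadjusted P under 0.05 in edgeR, where 1.63% of all genes tested passed (0.89% as higher), and 0 whose libraries did not overlap, where 4.86% of all genes did not (2.69% as higher). Log2 fold changes ran from -0.35 for Lgr5 to 0.56 for Krt17, with a median of 0.11 beside 0.00 for all genes tested. The count with sEV-HYP against sEV-CTRL was 2 at an unadjusted P under 0.05, Cnn1 and Oxtr, both higher (2.45% of all genes passed, 1.39% as higher). All libraries of sEV-HYP exceeded those of sEV-CTRL for 5 genes, Krt17, Acta2, Cnn1, Oxtr and Procr, beside 6.7% of all genes as higher and 12.8% in either direction. The median was 0.19 against -0.02 for all genes. With sEV-HYP against sEV-NORM, the count was 1, Cnn1 (3.95% of all genes passed, 2.25% as higher), and sEV-HYP exceeded sEV-NORM in every library for 3 genes, Krt17, Acta2 and Cnn1, beside 12.3% of all genes as higher and 22.8% in either direction. Both of these comparisons use the same sEV-HYP libraries. After Benjamini-Hochberg adjustment, edgeR called 0 of the 10 genes, and 0% of all genes, in each comparison. DESeq2, fitted on only the groups compared, gave 0, 2 (Cnn1 and Oxtr) and 2 (Acta2 and Cnn1) genes at an unadjusted P under 0.05, beside 1.43%, 2.06% and 6.56% of all genes, and 0 at an adjusted P under 0.05, where 3, 14 and 82 of all genes had one.

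**Figure D2:**
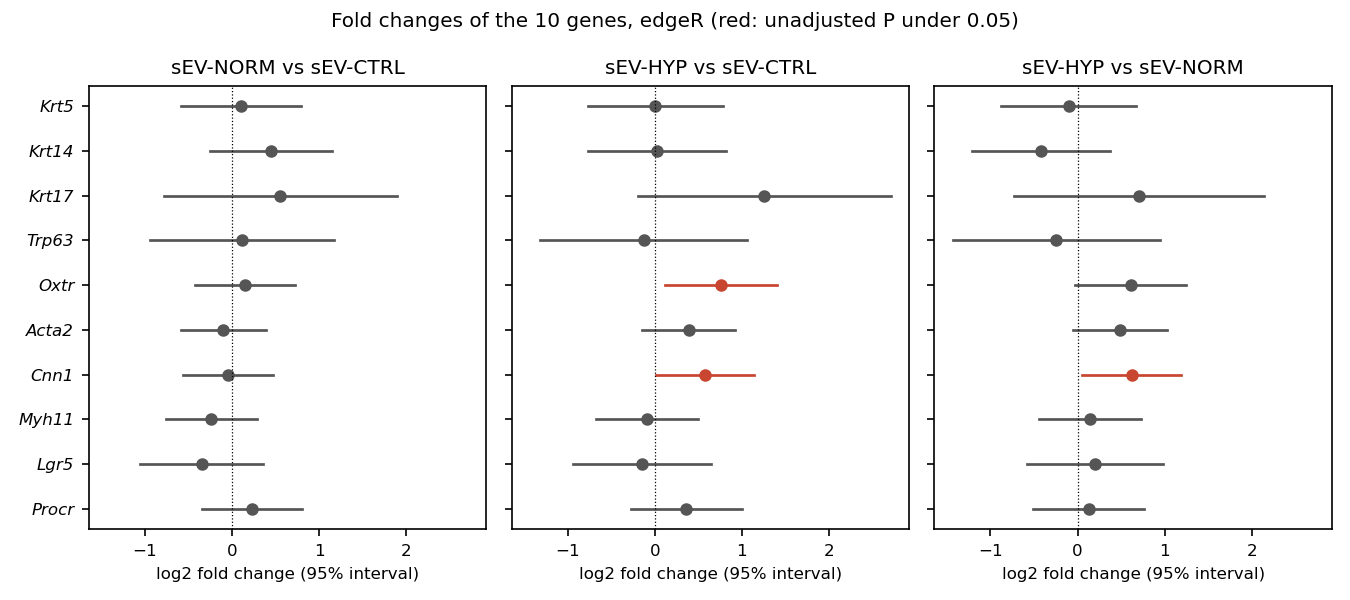
Log2 fold changes (x axis) of the 10 genes with 95% intervals from edgeR, in the 3 comparisons; red marks an unadjusted P under 0.05. Cnn1 is red in both sEV-HYP comparisons (0.58 and 0.62) and Oxtr against sEV-CTRL (0.76), and the intervals of the other genes hold 0.

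Across the 8 libraries, 45 pairs of these genes were compared on log2 CPM, and 40 of them had a positive r (median 0.49). Of these, 2 pairs passed an adjusted p of 0.05. Acta2 and Cnn1 varied together with r = 0.934 (exact permutation p = 0.000521, adjusted p = 0.0234) and rho = 0.929 (p = 0.00223, adjusted p = 0.0335), and r = 0.889 without sEV-CTRL 1 and sEV-NORM 2. Krt5 and Trp63 varied together with r = 0.899 (exact permutation p = 0.00211, adjusted p = 0.0474) and rho = 0.952 (p = 0.00114, adjusted p = 0.0335), and r = 0.830 without the same libraries. Krt5 and Krt14 had r = 0.819 (exact permutation p = 0.0161, adjusted p = 0.131) and rho = 0.929 (p = 0.00223, adjusted p = 0.0335), and r = 0.733 without those libraries. Oxtr had r of -0.50 with Krt14, -0.29 with Myh11, -0.23 with Krt5, -0.19 with Trp63 and -0.06 with Procr. Its r was 0.23 with Acta2, 0.32 with Lgr5, 0.33 with Cnn1 and 0.40 with Krt17. Groups of 2 or 3 libraries are too small for values within a group, so differences between groups are part of these relations.

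Members were also compared with the summed levels of 4 lists, 40 relations in all, of which 4 passed an adjusted p of 0.05. Here too, differences between groups are part of the relations. Acta2 followed the skeletal muscle genes with r = 0.922 (exact permutation p = 0.000769, adjusted p = 0.0308; rho = 0.929, p = 0.00223, adjusted p = 0.0446), and r = 0.877 without sEV-HYP 2 and sEV-NORM 2. Cnn1 did so with r = 0.841 (exact permutation p = 0.00362, adjusted p = 0.0362; rho = 0.857, p = 0.0107, adjusted p = 0.107), and r = 0.702 without these libraries. Myh11 followed the vascular mural genes with r = 0.897 (exact permutation p = 0.00320, adjusted p = 0.0362; rho = 0.929, p = 0.00223, adjusted p = 0.0446), and r = 0.790 without sEV-CTRL 2 and sEV-HYP 2. Krt14 followed the suprabasal skin genes with r = 0.697 (exact permutation p = 0.00201, adjusted p = 0.0362; rho = 0.857, p = 0.0107, adjusted p = 0.107), and r was 0.920 without sEV-CTRL 2 and sEV-NORM 3. It was 0.857 without sEV-NORM 3 alone and 0.793 without sEV-NORM 1 and sEV-NORM 3, a choice made after the values were seen. In each case all but 1 or 2 of the libraries lay between 11.4 and 12.3 CPM of skin genes, so that few libraries carry the relation. Oxtr had r between -0.44 and 0.35 with the 4 lists, which do not include the adipocyte genes.

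**Figure D3:**
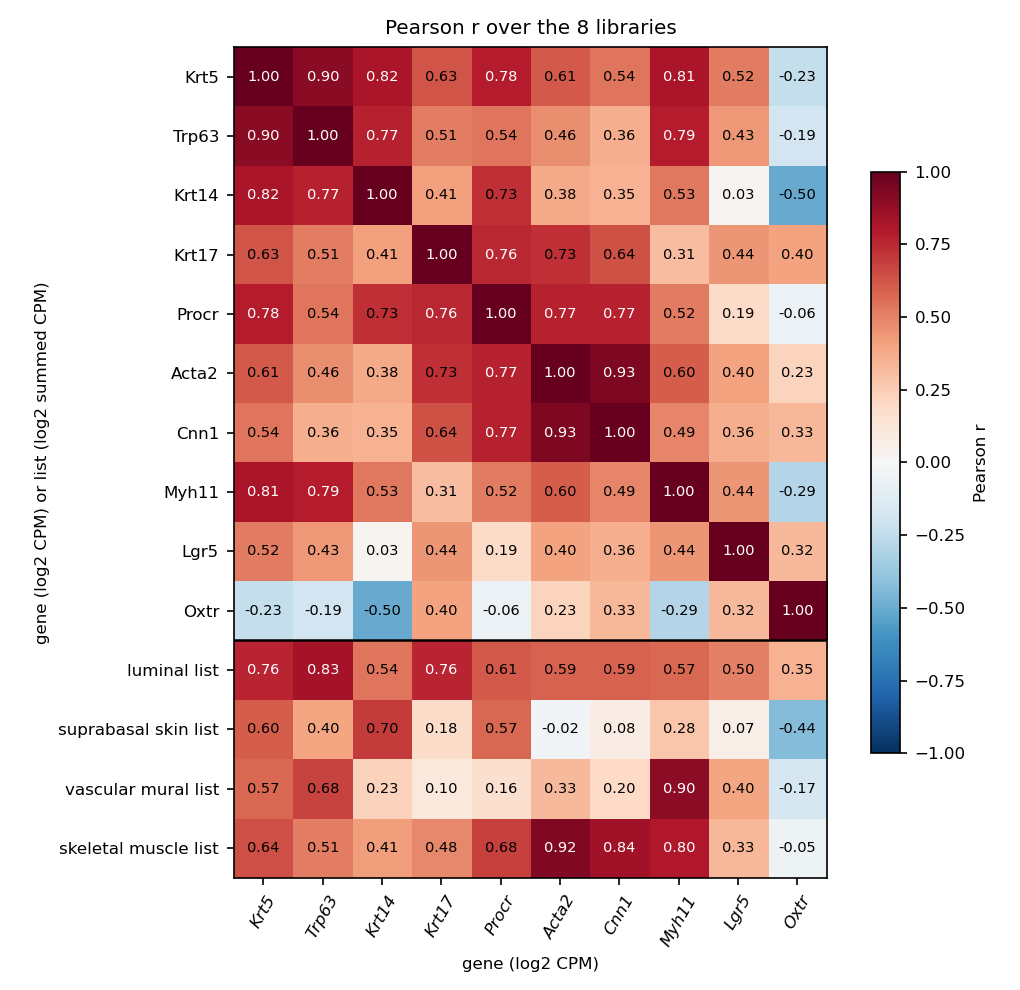
Pearson r over the 8 libraries between the log2 CPM of the 10 genes (columns) and of the same genes or the log2 summed CPM of 4 marker lists (rows, below the line). Acta2 and Cnn1 (0.93) and Krt5 and Trp63 (0.90) are the highest pairs, and the Oxtr column is pale or blue for most genes.

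**Figure D4:**
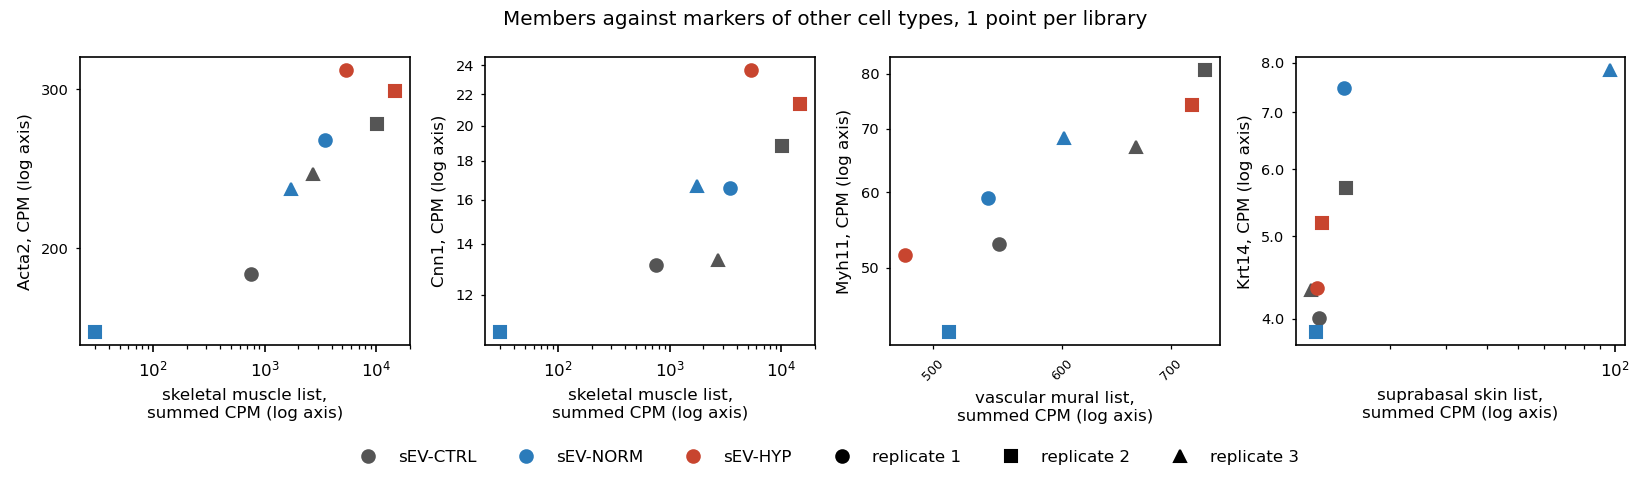
CPM of Acta2, Cnn1, Myh11 and Krt14 (y, log axes) against the summed CPM of a marker list of another cell type (x, log axes), 1 point per library, colored by group with symbols for the replicate number. Both sEV-HYP libraries are at the upper right for Acta2 and Cnn1 (5351 and 14754 CPM of skeletal muscle genes). Between them on the x axis, and lower, is sEV-CTRL 2 (10243 CPM), the next highest library for both genes. For Krt14, sEV-NORM 3 is alone at the right (96.6 CPM of skin genes).

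Genes most like Krt14 over the 8 libraries, among 15212 genes with a mean of at least 1 CPM, were Crnde (r = 0.947), Zfp867 (0.945), Tmem218 (0.941), Cd163 (0.937) and Zfp750 (0.929). For Acta2 they were Asb5 (0.971), Uhrf1bp1 (0.967), Napepld (0.966), Yipf7 (0.962) and Smco1 (0.962). Asb5 is known from skeletal muscle. With 15212 genes ranked over only 8 libraries, some high values arise without any relation, and the likeness was not tested.

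The wider contractile apparatus was followed with 14 other genes of smooth muscle and myoepithelium. Against sEV-NORM, 13 of 14 had a positive log2 fold change with sEV-HYP, as did 47% of all genes (median 0.46 beside -0.02 for all genes). Of the 14, 3 were higher at an unadjusted P under 0.05, Actg2, Tpm1 and Des, beside 2.25% of all genes as higher. Actg2, the enteric smooth muscle actin, was at 6.19, 11.7 and 6.62 CPM with sEV-CTRL, 7.72, 5.76 and 8.89 CPM with sEV-NORM, and 19.4 and 13.4 CPM with sEV-HYP. Both sEV-HYP libraries were above the other 6, with log2 fold changes of 1.14 (SE 0.33, unadjusted P = 0.00722) against sEV-NORM and 1.00 (SE 0.33, unadjusted P = 0.0140) against sEV-CTRL. Without sEV-HYP 1 these were 0.84 (unadjusted P = 0.0746) and 0.71 (unadjusted P = 0.126), and with the skeletal muscle covariate the first was 0.77 (unadjusted P = 0.0569). Tpm1 (2.23, SE 0.80, unadjusted P = 0.0211) and Des (1.47, SE 0.60, unadjusted P = 0.0363), which encode tropomyosin and desmin, are also made in quantity by skeletal muscle. With the skeletal muscle covariate they were at 0.82 (unadjusted P = 0.226) and 0.40 (unadjusted P = 0.358). Without sEV-HYP 2, sEV-NORM 2 or sEV-NORM 3, Tpm1 was at 1.31, 1.88 and 2.16 and Des at 0.98, 1.14 and 1.39, each with an unadjusted P of 0.05 or more, as was Des without sEV-CTRL 3 (1.47). Against sEV-CTRL, Actg2 alone of the 14 passed (1.39% of all genes as higher), 11 of 14 were positive (47.5% of all genes) and the median was 0.25. With sEV-NORM against sEV-CTRL, 0 of 14 passed (1.63% of all genes) and 1 was positive (49.8% of all genes), with a median of -0.21. The adjusted P by edgeR was 1.00 for each gene named.

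Downstream of Oxtr, 9 genes of Gq and calcium signaling were measured. Rgs2, an inhibitor of Gq signaling, exceeded its sEV-NORM level 1.69-fold with sEV-HYP (log2 fold change 0.76, SE 0.26, unadjusted P = 0.0158). Its levels were 102, 123 and 76.6 CPM with sEV-CTRL, 61.5, 106 and 91.3 CPM with sEV-NORM, and 138 and 154 CPM with sEV-HYP, the highest of the 8. Without sEV-HYP 2 its log2 fold change was 0.68 (unadjusted P = 0.0747). Itpr2, a calcium release channel, was lower than in sEV-NORM glands, with a log2 fold change of -0.42 (SE 0.17, unadjusted P = 0.0354). It was -0.43, -0.35 and -0.24 without sEV-NORM 1, sEV-NORM 2 or sEV-HYP 2, each with an unadjusted P of 0.05 or more. The other 7, among them Gnaq and Plcb1, had a P of 0.05 or more in this comparison, and 0 of 9 passed in either other comparison. Over all genes tested, 3.95% passed with sEV-HYP against sEV-NORM (2.25% as higher). In the other comparisons, 2.45% passed with sEV-HYP and 1.63% with sEV-NORM against sEV-CTRL. Medians of the 9 with sEV-HYP were 0.15 against sEV-NORM and -0.08 against sEV-CTRL, each beside -0.02 for all genes.

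Around Lgr5, 9 of 11 genes of the R-spondin pathway were tested. Znrf3, a ubiquitin ligase that removes Wnt receptors, was higher with sEV-HYP than with sEV-CTRL (log2 fold change 0.44, SE 0.19, unadjusted P = 0.0454), beside 1.39% of all genes as higher. In the other comparisons 0 genes passed, where 3.95% (sEV-HYP against sEV-NORM) and 1.63% (sEV-NORM against sEV-CTRL) of all genes did. Znrf3 no longer passed in 15 of 19 alternatives, DESeq2 on all libraries among them (0.43, unadjusted P = 0.0520), with values of 0.28 (without sEV-HYP 2) to 0.58. Around Trp63, 8 of 9 genes that p63 is known to regulate were tested, and Krt15 alone passed. This keratin of basal and follicular cells had 2 to 85 counts per library and was at 0.102, 0.365 and 0.547 CPM with sEV-CTRL, 1.21, 1.11 and 4.02 CPM with sEV-NORM, and 1.97 and 1.34 CPM with sEV-HYP. Its sEV-NORM and sEV-HYP libraries all lay above those of sEV-CTRL, as did 2.69% and 6.7% of all genes in these comparisons, each taken alone. How many genes do so in both was not counted. The log2 fold changes were 2.63 (SE 0.70, unadjusted P = 0.00462) for sEV-NORM and 2.28 (SE 0.75, unadjusted P = 0.0142) for sEV-HYP. Of all genes tested, 0.89% and 1.39% passed as higher in these comparisons, and Krt15 is named for its small P. Both comparisons share the sEV-CTRL libraries, and the highest value was in sEV-NORM 3, the library with skin genes. The sEV-NORM value was 1.77 (unadjusted P = 0.0245) without sEV-NORM 3, and the sEV-HYP value was 1.97 (unadjusted P = 0.0687) without sEV-HYP 1. The 8 genes had positive values in 8 of 8 cases with sEV-NORM (median 0.37) and in 5 of 8 with sEV-HYP (median 0.14). Over all genes tested, 49.8% and 47.5% were positive in these comparisons.

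Adhesion genes of the basal surface (11, including the integrins Itgb1 and Itga6) and regulators of basal fate (8, including Egfr and Snai2) gave 0 genes with an unadjusted P under 0.05 in any comparison. Of all genes tested, 1.63% passed for sEV-NORM against sEV-CTRL, 2.45% for sEV-HYP against sEV-CTRL and 3.95% for sEV-HYP against sEV-NORM. Itga6, the integrin used to sort basal cells, had a log2 fold change of 0.14 (SE 0.20, 95% interval -0.32 to 0.59) with sEV-HYP against sEV-CTRL. Snai2, a transcription factor of basal cells, was at -0.09 (SE 0.24, -0.63 to 0.45).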

How the data were processed

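RNA from 8 whole mammary glands was sequenced with a Lexogen SENSE mRNA kit. The authors aligned reads with STAR to mm10 (GRCm38) and estimated reads per Ensembl gene with RSEM 1.2.12. The deposited table holds raw counts, checked to be whole numbers. The rounding of the RSEM estimates and the strand setting of the counting are not given in the sources used here. Groups came from the labels, and nothing says that replicates were processed apart, so that P values measure the spread between these libraries. Total counts were 18194996 to 24622569, and a count of 0 allows up to 3 counts, for counting error only. No pair of libraries was a duplicate.

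Genes kept by filterByExpr (minimum count 10) were tested after TMM scaling with the two-sided quasi-likelihood F-test of edgeR 4.0.16 (R 4.3.3). One model held the 3 groups, with 5 residual and 4.08 prior degrees of freedom. The common biological coefficient of variation was 0.297. P values were adjusted over 17858 genes by Benjamini-Hochberg. An unadjusted P of 0.05 is the study's threshold. Log2 CPM used a prior count of 2. Exons came from GENCODE release M21. Correlations across libraries were tested with two-sided exact permutation tests, which shuffle all 8 libraries without regard to group.

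The genes, lists and tests were chosen with earlier results of these data known. All 10 genes are named in each comparison. Of each other list, up to 4 genes with the smallest unadjusted P under 0.05 in any comparison are named, otherwise up to 2 with the highest mean CPM. For likeness, the 5 genes with the highest r were taken for Krt14 and Acta2. Actg2 is also named for its likeness to Cnn1, and other list genes given only as examples of a list or of another tissue were chosen for their known role. Alternatives were DESeq2 1.42.0 or its size factors, other filters, 2-group fits, a replicate block, skin and luminal covariates, and each library left out. A skeletal muscle covariate and a fit without sEV-NORM 2 and 3 were chosen after seeing the data, as was the use of all alternatives on other list genes. The edgeR procedure was tested on simulated data.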

Additional observations from a re-analysis of the deposited data

How the results depend on the processing

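With 2 or 3 libraries per group, the spread between glands sets what can be seen, and differences inside a gene's 95% interval are not excluded. sEV-HYP rests on 2 libraries. Krt17 and Krt15 also had few counts, which limits them further. Whole-gland RNA, shared sequence among keratin genes and unequal amounts of other tissues limit what the values say about basal cells. Of the 30 fold changes under 18 or 19 settings each, 480 values kept their direction and their side of the unadjusted threshold, 51 changed sign, 17 passed the threshold newly and 19 no longer passed it. No setting gave any of the 10 genes an adjusted P under 0.05 (0 in each). The cause of these shifts was not tested.

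The number of the 10 genes with an unadjusted P under 0.05 for sEV-NORM against sEV-CTRL was 0, and 1 with the luminal (Myh11) or skeletal muscle (Krt14) covariate. For sEV-HYP against sEV-CTRL it was 2 (Cnn1 and Oxtr), 1 (Oxtr) with DESeq2 size factors, the replicate block or the skeletal muscle covariate, 2 with other genes (Trp63 and Oxtr) with the luminal covariate, and 3 (with Krt17) with no filter. For sEV-HYP against sEV-NORM it was 1, and 2 with DESeq2 on all libraries or no filter (Cnn1 and Oxtr), DESeq2 on the groups compared (Acta2 and Cnn1) or the luminal covariate (Cnn1 and Trp63), 3 with the skeletal muscle covariate (Krt14, Trp63 and Oxtr) and 0 with the replicate block. With libraries left out, these counts were 0 to 1, 0 to 2 and 0 to 2. With DESeq2 on the groups compared, counts in 9 of 39 pairs of list and comparison moved by more than 1.5 times. For sEV-NORM against sEV-CTRL, the p63 list went from 1 to 2, skin from 2 to 1 and vascular mural from 0 to 1. For sEV-HYP against sEV-CTRL, the R-spondin list went from 1 to 0 and skin from 0 to 1, and for sEV-HYP against sEV-NORM the basal regulators, luminal, vascular mural and endothelial lists each went from 0 to 1. Over all genes, the counts of 291, 438 and 706 at an unadjusted P under 0.05 were 533, 672 and 1102 with no filter, 1133, 877 and 1006 with the luminal covariate and 1021, 1475 and 990 without sEV-CTRL 2. For sEV-NORM against sEV-CTRL the count was 484 with the skeletal muscle covariate and 567 without sEV-CTRL 1. For sEV-HYP against sEV-NORM it was 1171 with DESeq2, 1068 with edgeR on the groups compared, 391 without sEV-HYP 2 and 360 without sEV-NORM 2 and sEV-NORM 3. Krt17 could not be fitted with at least 10 counts in every library, because the filter removed it.

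The following log2 fold changes turned sign, each with an unadjusted P of 0.05 or more. With the skin covariate, sEV-NORM against sEV-CTRL gave -0.18 for Krt5 and -0.12 for Trp63, and sEV-HYP against sEV-NORM gave 0.21 for Krt5 and 0.021 for Trp63. With the luminal covariate, sEV-NORM against sEV-CTRL gave -0.13 for Krt5 and -0.23 for Trp63, and sEV-HYP against sEV-CTRL gave -0.36 for Krt5 and -0.24 for Krt14. With the skeletal muscle covariate, sEV-NORM against sEV-CTRL gave 0.13 for Acta2, 0.012 for Myh11, 0.17 for Cnn1 and -0.14 for Oxtr, sEV-HYP against sEV-CTRL gave -0.20 for Krt5 and -0.21 for Krt14, and sEV-HYP against sEV-NORM gave -0.28 for Myh11 and -0.23 for Procr. For Krt5, sEV-HYP against sEV-CTRL was -0.0013 with DESeq2 size factors, -0.0015 with DESeq2 on all libraries and -0.0044 with DESeq2 on the groups compared.

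The replicate number as a block gave 0.017 for Krt5 (sEV-HYP against sEV-NORM), and Cnn1 values of 0.58 (unadjusted P = 0.0936) against sEV-CTRL and 0.63 (unadjusted P = 0.0769) against sEV-NORM. The labels tie no number to an animal or day. Same-numbered libraries had correlations of their deviations from the group means of -0.416 to 0.369, and differently numbered ones of -0.369 to 0.467. Deviations within such small groups depend on each other, so a pairing by number was neither shown nor excluded.

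Among the other lists' genes past the threshold, 171 of 239 values kept direction and side, and 4 turned sign. Krt77 was at -1.72 and Krtdap at -0.17 with the skin covariate, and Krt77 at -0.996 without sEV-NORM 2 and sEV-NORM 3. Leaving out 1 library, Krt77 was at -1.78 (without sEV-NORM 3) to 10.08 (without sEV-CTRL 3).

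With 1 library, or sEV-NORM 2 and sEV-NORM 3 together, left out, sEV-NORM against sEV-CTRL ranged from -0.14 to 0.35 for Krt5, -0.25 to 0.72 for Trp63, -0.26 to 0.17 for Acta2, -0.16 to 0.15 for Cnn1, -0.22 to 0.31 for Oxtr and -0.63 to 0.0093 for Lgr5. For sEV-HYP against sEV-CTRL the ranges were -0.21 to 0.25 for Krt5, -0.11 to 0.19 for Krt14, -0.74 to 0.47 for Trp63, -0.37 to 0.15 for Myh11 and -0.41 to 0.21 for Lgr5. For sEV-HYP against sEV-NORM they were -0.32 to 0.14 for Krt5, -0.86 to 0.19 for Trp63, -0.14 to 0.39 for Myh11, -0.035 to 0.47 for Lgr5 and -0.076 to 0.32 for Procr.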

Other observations

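Of all genes tested, 1.63% had an unadjusted P under 0.05 with sEV-NORM against sEV-CTRL (0.89% as higher). These shares were 2.45% (1.39%) with sEV-HYP against sEV-CTRL and 3.95% (2.25%) with sEV-HYP against sEV-NORM. The luminal layer was followed with 16 genes. With sEV-NORM against sEV-CTRL, 14 of 16 had a positive log2 fold change (median 0.28), beside 49.8% of all genes. Foxa1, the pioneer factor of hormone-sensing luminal cells, was 1.60-fold higher (log2 fold change 0.68, SE 0.27, unadjusted P = 0.0344, adjusted P = 1.00 by edgeR). Foxa1 was at 35.8, 55.6 and 45.8 CPM with sEV-CTRL, 99.8, 47.6 and 72.4 CPM with sEV-NORM, and 65.5 and 50.6 CPM with sEV-HYP, so that sEV-NORM 2 lay inside the sEV-CTRL range. Without sEV-CTRL 1, sEV-CTRL 3, sEV-NORM 1 or sEV-NORM 3, it was at 0.51, 0.68, 0.39 and 0.69, each with an unadjusted P of 0.05 or more. With sEV-HYP against sEV-CTRL, 13 of 16 luminal genes were positive (median 0.31), beside 47.5% of all genes, and 0 had a P under 0.05. The 7 suprabasal skin genes tested had medians of 1.47 with sEV-NORM and 0.09 with sEV-HYP against sEV-CTRL. Krt77 (6.11, SE 2.30, unadjusted P = 0.0259) and Krtdap (4.01, SE 1.58, unadjusted P = 0.0315) passed the unadjusted threshold with sEV-NORM, and both rested on sEV-NORM 3, at 18.9 and 9.55 CPM beside at most 0.595 and 0.535 CPM elsewhere. Without any 1 sEV-CTRL library, each also had an unadjusted P of 0.05 or more. Dmkn was lower in sEV-HYP than in sEV-NORM glands (-3.09, SE 1.06, unadjusted P = 0.0170), with -1.46 (unadjusted P = 0.0705) without sEV-NORM 3 and -2.72 (unadjusted P = 0.0872) without sEV-HYP 2. The 2 hair follicle genes tested, Krt79 and Tchh, had a P of 0.05 or more in each comparison. None of the 12 skeletal muscle genes, Myh4 and Acta1 among them, passed (0 of 12), although their median was 2.39 for sEV-HYP against sEV-NORM, 1.05 against sEV-CTRL and -1.37 for sEV-NORM against sEV-CTRL. The 9 vascular mural genes, among them Rgs5 and Abcc9, gave 0 in each comparison, with medians of -0.29 for sEV-NORM and -0.17 for sEV-HYP against sEV-CTRL. Endothelial genes (7, among them Pecam1 and Cdh5) and adipocyte genes (6, among them Fabp4 and Cfd) also gave 0.

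Genes most like Oxtr and Cnn1 were looked up after the values were seen, and their likeness was not tested either. Those of Oxtr were Gm12248 (r = 0.971 over 8 libraries), Alx4 (0.956), Basp1 (0.946), Gcnt4 (0.922) and 8030462N17Rik (0.920). Those of Cnn1 were Gm4654 (0.972), Alpl (0.963), Actg2 (0.954), Ctxn3 (0.950) and Uhrf1bp1 (0.944).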
